A study of Mus musculus with 6 samples.

Results

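The T-cell receptor complex and signalling genes are the genes through which a T lymphocyte recognises antigen and passes that signal on, together with the factors and surface molecules that mark T-cell subsets. They were chosen by name as a list of 38 genes, with earlier results of these data known. Of these, 36 had at least 1 probe set assigned to that gene alone, among 18193 genes measured in all, and each was represented by its brightest probe set by mean over all arrays. Lck and Tcf7 are not analysed here.

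The tumours were raised under the skin of syngeneic mice from 344SQ, a lung adenocarcinoma line taken from a mouse of genotype KrasLA1/+; p53R172HdelG/+, so every sample shares that origin and 1 parental line. Tumour cells were sorted by flow cytometry on CD133, and RNA of the CD133 high fraction (3 arrays) and of the CD133 low fraction (3 arrays) was hybridised to Affymetrix mouse arrays. The labels give the host mice no age, and they name no sorting marker besides CD133 and no treatment. Values are log2 probe set values, and each difference is the CD133 high mean minus the CD133 low mean on that scale. Adjusted p-values are from limma, a linear model with a moderated variance, with Benjamini-Hochberg adjustment over all 45037 probe sets, and a gene is said to have fallen or risen where this p was below 0.05.

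In a T cell, the antigen-binding receptor has no signalling tail of its own and relies on the CD3 chains and the zeta chain, whose tails carry tyrosine motifs. Contact with antigen brings the CD4 or CD8 co-receptor and its kinase to the complex, the motifs are phosphorylated, the kinase ZAP-70 docks on them, and the adaptors LAT and SLP-76 assemble the machinery that releases calcium and activates Ras and protein kinase C theta. In tumours, T cells that have met antigen commonly carry the inhibitory receptors PD-1 and CTLA-4, and regulatory T cells carry the factor Foxp3.

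The CD133 high arrays did not resemble each other equally. CD133 high replicate 1 had a mean Spearman correlation of 0.931 with the other CD133 high arrays and 0.973 with the CD133 low arrays, taken across probe sets. CD133 high replicates 2 and 3 also stood apart in their hybridisation controls, at 11.29 and 11.04 against 10.38 in replicate 1 and 10.19 to 10.51 in the CD133 low arrays. The 3' minus middle difference of the Gapdh control was 0.44 and 0.46 in those replicates, −0.13 in replicate 1 and −0.09 to −0.07 in the CD133 low arrays. Results are therefore also given without replicate 1, and the count of calls also with the hybridisation control level in the model, while the part of the Gapdh measure was not tested. Prom1, the gene of CD133, differed by 0.79 (SE 0.26, limma, adjusted p = 0.297), with all 3 CD133 high arrays above all 3 CD133 low arrays. The leukocyte gene Ptprc, which encodes CD45, lay at 12.74 to 13.20 in the CD133 high arrays and 12.77 to 13.20 in the CD133 low arrays, so RNA of leukocytes was present in both fractions.

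The 250 bases upstream of the transcription start are shown for the called genes that the RefSeq promoter table holds (Cd3g, Cd3e, Cd5 and Lat) and for Cd3d, the head-to-head neighbour of Cd3g, so that the DNA next to the starts of the separated receptor genes can be read. The starts of Cd3d and Cd3g lie 1355 bases apart. All coordinates are of build GRCm38.p6. The windows are chr9:44981536-44981785, plus strand (Cd3d), chr9:44980432-44980681, minus strand (Cd3g), chr9:45009612-45009861, minus strand (Cd3e), chr19:10738975-10739224, minus strand (Cd5) and chr7:126369569-126369818, minus strand (Lat). Capitals mark matches, searched on both strands, to core motifs of factors with known roles in T cells. The ETS core was searched as AGGAAG. The E protein core was searched as CACCTG. The GATA core was searched as AGATAA. The TCF/LEF core was searched as CTTTGA. The RUNX core was searched as TGTGGT.
Cd3d: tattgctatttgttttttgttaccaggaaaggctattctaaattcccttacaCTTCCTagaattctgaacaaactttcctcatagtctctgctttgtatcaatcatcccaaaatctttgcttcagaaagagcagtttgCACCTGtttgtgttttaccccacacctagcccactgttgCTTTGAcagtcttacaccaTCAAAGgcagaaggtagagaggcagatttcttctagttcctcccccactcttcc
Cd3g: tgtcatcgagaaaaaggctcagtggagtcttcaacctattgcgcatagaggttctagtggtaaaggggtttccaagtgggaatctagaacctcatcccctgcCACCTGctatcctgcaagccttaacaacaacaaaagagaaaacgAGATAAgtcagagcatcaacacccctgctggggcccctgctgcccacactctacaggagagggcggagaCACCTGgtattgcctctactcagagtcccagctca
Cd3e: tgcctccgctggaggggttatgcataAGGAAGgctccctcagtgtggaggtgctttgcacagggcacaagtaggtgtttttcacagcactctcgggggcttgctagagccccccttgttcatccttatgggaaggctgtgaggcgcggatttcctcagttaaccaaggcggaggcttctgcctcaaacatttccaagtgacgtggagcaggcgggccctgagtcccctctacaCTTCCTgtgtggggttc
Cd5: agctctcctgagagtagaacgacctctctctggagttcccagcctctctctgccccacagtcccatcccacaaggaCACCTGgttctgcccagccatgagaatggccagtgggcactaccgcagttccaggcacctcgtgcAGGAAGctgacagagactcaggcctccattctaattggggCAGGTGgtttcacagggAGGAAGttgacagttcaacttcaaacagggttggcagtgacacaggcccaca
Lat: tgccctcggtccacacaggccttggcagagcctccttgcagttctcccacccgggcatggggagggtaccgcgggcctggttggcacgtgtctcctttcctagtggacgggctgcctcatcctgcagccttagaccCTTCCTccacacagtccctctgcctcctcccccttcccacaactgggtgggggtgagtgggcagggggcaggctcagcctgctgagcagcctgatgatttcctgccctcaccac

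In these windows no match overlapped another. Cd3d held 1 ETS, 1 E protein and 2 TCF/LEF cores, and Cd3g held 2 E protein cores and 1 GATA core. The ETS core occurred in the windows of Cd3e (2), Cd5 (2) and Lat (1), and Cd5 also held 2 E protein cores. Windows for 23 of the 36 measured genes were in the table, 31 windows in all. The ETS core was in 54.8% of them and in 29.5% of the 32851 windows of all genes, the E protein core in 29% and 17.2%, the TCF/LEF core in 19.4% and 13.8%, the GATA core in 12.9% and 9.99%, and the RUNX core in 6.45% and 14%. These shares describe letters in a window and were not tested.

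Most T-cell receptor and signalling genes were lower in the CD133 high fraction. In limma 6 of the 36 fell, namely Cd3e, Cd3g, Cd8b1, Cd2, Cd5 and Lat, and 0 rose, where 0.231% of all genes fell and 0.0220% rose. At an unadjusted p under 0.05, 27 were lower, against 9.94% of all genes. For the same number, 27, every CD133 high array lay below every CD133 low array, against 12.8% of all genes. Because the list was chosen with earlier results of these data known, these shares describe it and do not test it. The median log2 difference over the 36 genes was −1.21, beside 0.0013 over all genes, and single genes ran from −2.86 to 0.46. In bulk RNA, fewer T cells and less RNA of these genes per T cell cannot be told apart. Markers of B cells, natural killer cells, mast cells and dendritic cells were also lower in median, by −1.51, −1.12, −1.20 and −0.65. The neutrophil, pan-leukocyte, plasma cell, macrophage and epithelial lists had medians of −0.45, −0.34, −0.12, −0.12 and −0.03. The fibroblast and endothelium lists had 0.37 and 0.23. Single markers within a list did not all move alike, as given below. The part of these other cells in the T-cell counts was not tested.

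The count depended on which arrays were used. With CD133 high replicate 1 left out, 25 of the 36 genes fell, against 14.6% of all genes. All 6 calls were among the 25. Cd8a and Lcp2 rose at their brightest probe sets, against 11.7% of all genes. The other probe sets of Cd8a all fell, with differences of −1.14, −1.68, −1.49 and −2.42 (limma, adjusted p = 0.012, 0.010, 0.016 and 0.0048). The dimmer probe set of Lcp2 differed by −0.39 and did not pass (adjusted p = 0.18). That comparison keeps only CD133 high replicates 2 and 3, so in it the fraction and the differing hybridisation and Gapdh controls cannot be told apart. With any other single array left out, 0 passed in limma, with 26 to 27 lower at an unadjusted p under 0.05, and the median stayed between −1.27 and −1.15. The 6 calls were also absent without a variance trend and when the hybridisation control level was added to the model. There 0 of 36 passed in limma, and 27 and 24 were lower at an unadjusted p under 0.05. With values below 5 set to 5 there were 2 calls, 1 of them shared. Shares of all genes are not given for these fits or for leaving out the other arrays. Whether the lost calls are particular to the T-cell genes was therefore not tested.

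**Figure D1:**
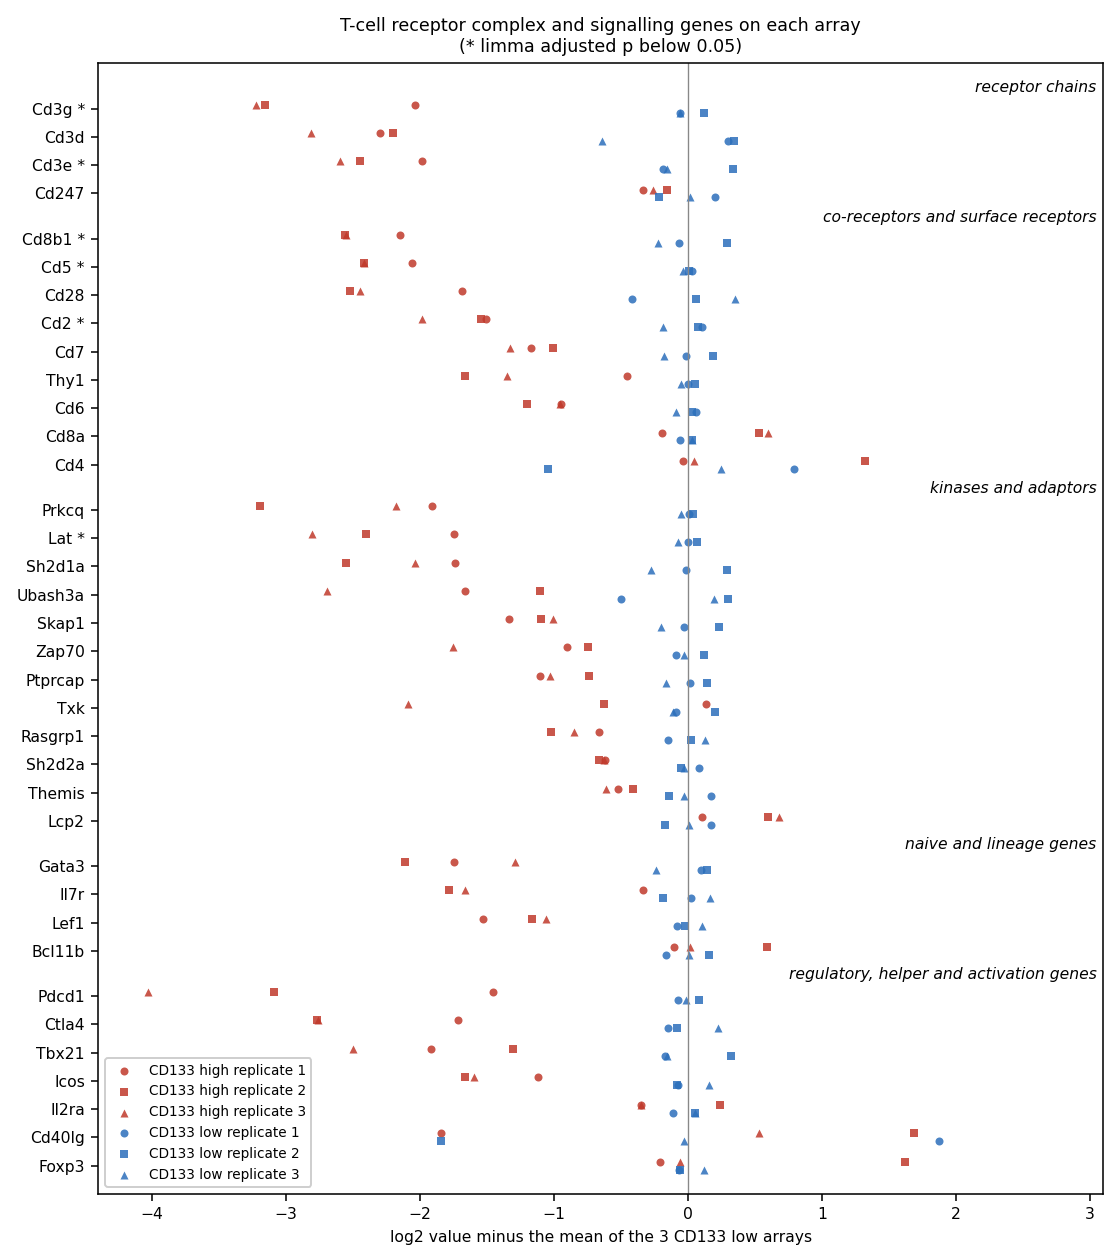
Log2 value of each gene on each array minus the mean of the 3 CD133 low arrays (horizontal axis), with genes grouped by role and CD133 high arrays in red above CD133 low arrays in blue; an asterisk marks the 6 genes past the limma threshold. For 27 of the 36 genes the red points all lie left of the blue ones, while Cd4, Cd8a, Cd247, Lcp2, Txk, Bcl11b, Il2ra, Cd40lg and Foxp3 overlap.

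The CD3 chains, the signalling core of the receptor, were among the genes with the greatest differences. Cd3g, which encodes CD3 gamma, stood at 8.48, 7.35 and 7.29 in the CD133 high arrays and 10.45, 10.63 and 10.45 in the CD133 low arrays, a difference of −2.81 (SE 0.33, adjusted p = 0.0408). Cd3e, which encodes CD3 epsilon, stood at 8.38, 7.92 and 7.77 in the CD133 high arrays and 10.18, 10.70 and 10.21 in the CD133 low arrays, a difference of −2.34 (SE 0.23, adjusted p = 0.0230). On the linear scale these are 6.99-fold and 5.07-fold lower signals in the CD133 high fraction. In both genes the groups were separated by more than the range within either.

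Cd3d, which encodes CD3 delta, had 8.09, 8.19 and 7.58 in the CD133 high arrays and 10.69, 10.74 and 9.75 in the CD133 low arrays. Its difference of −2.44 (SE 0.31) missed the threshold at an adjusted p of 0.0558, although its groups did not overlap. CD133 low replicate 3 was the lowest of its group for Cd3d, and without CD133 high replicate 1 the adjusted p was 0.0095. Cd247, which encodes the zeta chain, gave no single answer. Its brightest probe set stood at 7.05, 7.23 and 7.13 in the CD133 high arrays and 7.59, 7.17 and 7.40 in the CD133 low arrays (−0.25, adjusted p = 0.513), and the other 3 probe sets differed by −1.73, 0.10 and 0.91, with adjusted p of 0.248, 0.930 and 0.340.

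The variable receptor chains themselves were read by 17 probe sets that the platform assigns to a single T-cell receptor segment or locus. Of these, 3 fell and 0 rose, where 0.167% of all probe sets fell, and all 3 were assigned to the alpha segment Trav9d-3. They differed by −2.03, −2.12 and −2.26 (adjusted p = 0.0168, 0.0168 and 0.0428). The remaining 2 probe sets assigned to Trav9d-3 differed by −0.64 and 1.52 and did not pass. The first had 4 values below 5. The second was below 5 on all arrays, with 3 values at exactly 0, and gives no usable difference. A probe set assigned to the beta segment Trbv1 stood at 8.48, 7.31 and 6.65 in the CD133 high arrays and 10.81, 10.77 and 10.52 in the CD133 low arrays (−3.22, SE 0.43, adjusted p = 0.0633). The gamma segment Trgv1 had a difference of −1.82 (adjusted p = 0.195). Over the 17 probe sets 12 differences were negative and 5 positive, with a median of −0.64. Besides 1 probe set of Trav9d-3, the positive ones included Trav13-5 at 1.03, 1 of the 3 probe sets of Trgv4 at 0.50 and Trav12n-1 at 0.32 (adjusted p = 0.319, 0.608 and 0.579). Segments share sequence, so a probe set may read other segments than the one it names.

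Among co-receptors and other surface receptors, 3 of 9 genes fell, against 0.231% of all genes, and the median difference was −1.17. Cd8b1, the beta chain of the CD8 co-receptor, stood at 6.86, 6.45 and 6.46 in the CD133 high arrays and 8.94, 9.30 and 8.78 in the CD133 low arrays (−2.42, SE 0.21, adjusted p = 0.0186). Cd5, a scavenger-receptor family protein that dampens receptor signalling, stood at 6.20, 5.84 and 5.83 in the CD133 high arrays and 8.29, 8.26 and 8.22 in the CD133 low arrays (−2.30, SE 0.19, adjusted p = 0.0186). In both genes the arrays of a fraction lay close together and the fractions were far apart. Cd2, an adhesion receptor that binds CD48 in mice, stood at 8.06, 8.02 and 7.58 in the CD133 high arrays and 9.68, 9.65 and 9.39 in the CD133 low arrays (−1.68, SE 0.19, adjusted p = 0.0370).

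Cd28, the main costimulatory receptor, stood at 8.36, 7.53 and 7.60 in the CD133 high arrays and 9.63, 10.11 and 10.40 in the CD133 low arrays. This difference of −2.22 (SE 0.30) had an adjusted p of 0.0621, and the other probe set of Cd28 passed (−2.55, SE 0.23, adjusted p = 0.0186). Cd6, a relative and chromosomal neighbour of Cd5, and Cd7 differed by −1.04 and −1.17 without overlap between the groups (adjusted p = 0.116 and 0.110). Thy1, a surface glycoprotein of mouse T cells that fibroblasts and other cells also carry, had 11.19, 9.98 and 10.29 in the CD133 high arrays and 11.64, 11.70 and 11.60 in the CD133 low arrays (−1.16, adjusted p = 0.281). For Thy1, CD133 high replicate 1 lay near the CD133 low arrays.

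The co-receptor alpha chain and CD4 behaved unlike Cd8b1 at their brightest probe sets. That of Cd8a stood at 8.28, 9.0 and 9.07 in the CD133 high arrays and 8.41, 8.50 and 8.50 in the CD133 low arrays (0.31, SE 0.24, adjusted p = 0.511). The other 4 probe sets of Cd8a differed by −1.28, −1.58, −1.22 and −2.21, with adjusted p of 0.110, 0.0875, 0.276 and 0.0579, and in all 4 every CD133 high array lay below every CD133 low array. Cd4 had 2.19, 3.55 and 2.27 in the CD133 high arrays and 3.02, 1.18 and 2.48 in the CD133 low arrays, so it was close to the lower end of the scale on every array. The second probe set of Cd4 was listed at exactly 0 on all arrays except CD133 low replicate 3, at 2.42. These probe sets give no measure of CD4 T cells in either fraction.

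Of the 12 measured kinases and adaptors 1 fell, against 0.231% of all genes, and the median difference was −1.05. In 10 of them every CD133 high array lay below every CD133 low array, against 12.8% of all genes. Lat, the membrane adaptor on which the signalling complex assembles, stood at 7.64, 6.98 and 6.58 in the CD133 high arrays and 9.39, 9.45 and 9.31 in the CD133 low arrays (−2.32, SE 0.28, adjusted p = 0.0443). Prkcq, which encodes protein kinase C theta, had 5.14, 3.85 and 4.87 in the CD133 high arrays and 7.06, 7.09 and 7.0 in the CD133 low arrays (adjusted p = 0.0875), and because 2 of its values were below 5 the size of the difference is uncertain. Sh2d1a, which encodes the adaptor SAP, had 5.36, 4.55 and 5.06 in the CD133 high arrays and 7.09, 7.39 and 6.83 in the CD133 low arrays (adjusted p = 0.0742). Both genes were thus separated between the fractions but dim in the CD133 high arrays.

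Zap70, the kinase that docks on the phosphorylated chains, had 7.99, 8.15 and 7.14 in the CD133 high arrays and 8.81, 9.01 and 8.87 in the CD133 low arrays (−1.14, SE 0.28, adjusted p = 0.263), and a second probe set differed by −0.92 without overlap. The third probe set of Zap70 was below 5 on all arrays, with overlapping groups, and gives no usable difference. The adaptor Skap1 differed by −1.15 (adjusted p = 0.123), Ptprcap, the partner of the phosphatase CD45, by −0.96 (adjusted p = 0.125), and Rasgrp1, the exchange factor that activates Ras, by −0.84 (adjusted p = 0.157). Smaller differences without overlap were those of Sh2d2a, an adaptor also called TSAd, at −0.64 and Themis, a regulator of thymocyte selection, at −0.52 (adjusted p = 0.214 and 0.297). Ubash3a, a suppressor of receptor signalling, differed by −1.82 (adjusted p = 0.276), with 2 of its values below 5.

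Txk and Lcp2 departed from these. Txk, a Tec-family kinase, stood at 6.24, 5.48 and 4.02 in the CD133 high arrays and 6.02, 6.31 and 6.0 in the CD133 low arrays, so replicate 1 lay within the CD133 low range. Lcp2, which encodes SLP-76 and is also used by macrophages, mast cells and platelets, stood at 11.10, 11.59 and 11.67 in the CD133 high arrays and 11.16, 10.82 and 11.00 in the CD133 low arrays (0.46, SE 0.20, adjusted p = 0.326). The dimmer probe set of Lcp2 had a difference of −0.31 (adjusted p = 0.424), so the direction was not settled.

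None of the 4 measured naive and lineage genes passed at the brightest probe set, and the median difference was −1.25. Without overlap 3 were lower, against 12.8% of all genes. At an unadjusted p under 0.05 in limma those same 3 were lower, against 9.94% of all genes. Lef1, a Wnt-responsive factor of naive T cells, had 7.67, 8.03 and 8.13 in the CD133 high arrays and 9.11, 9.17 and 9.30 in the CD133 low arrays (−1.25, SE 0.18, adjusted p = 0.0721). Gata3, the factor of early T-cell and type 2 helper development, had 4.81, 4.44 and 5.26 in the CD133 high arrays and 6.65, 6.70 and 6.31 in the CD133 low arrays (adjusted p = 0.129), with 2 of its values below 5. Il7r, the interleukin 7 receptor that keeps naive and memory T cells alive, had 10.43, 8.98 and 9.10 in the CD133 high arrays and 10.79, 10.58 and 10.92 in the CD133 low arrays (−1.26, SE 0.38, adjusted p = 0.297). In Il7r the difference lay mainly in CD133 high replicates 2 and 3.

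Bcl11b, a zinc finger factor that commits precursors to the T lineage, depended on the probe set. The brightest stood at 8.92, 9.61 and 9.04 in the CD133 high arrays and 8.86, 9.18 and 9.03 in the CD133 low arrays (0.17, adjusted p = 0.706). Of the other 3 probe sets 2 fell. The brighter of these stood at 7.20, 7.66 and 7.62 in the CD133 high arrays and 9.27, 9.54 and 9.70 in the CD133 low arrays (−2.01, SE 0.20, adjusted p = 0.0240), and the other at 5.58, 5.63 and 5.56 in the CD133 high arrays and 7.66, 8.21 and 8.24 in the CD133 low arrays (−2.45, SE 0.23, adjusted p = 0.0204). The last probe set differed by −2.01 (adjusted p = 0.285). The choice of the brightest probe set therefore kept a gene with 2 called probe sets out of the count.

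Over all 65 probe sets of the 36 genes, 9 fell and 0 rose, against 0.167% of all probe sets that fell, and 43 were lower without overlap, against 10.5%. In 8 of the 15 genes with several probe sets, probe sets of the same gene differed in sign. Besides Cd247, Cd4, Cd8a, Lcp2 and Bcl11b these were Skap1, Ubash3a and Themis, where a dimmer probe set differed by 0.31, 0.15 and 0.25 and did not pass (adjusted p = 0.735, 0.876 and 0.762). With the mean of all probe sets of a gene in place of the brightest, 16 of the 36 genes fell, all 6 calls among them. That fit was adjusted over genes and not over probe sets. Its share of all genes is not given here, so the 16 cannot be set against all genes.

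**Figure D2:**
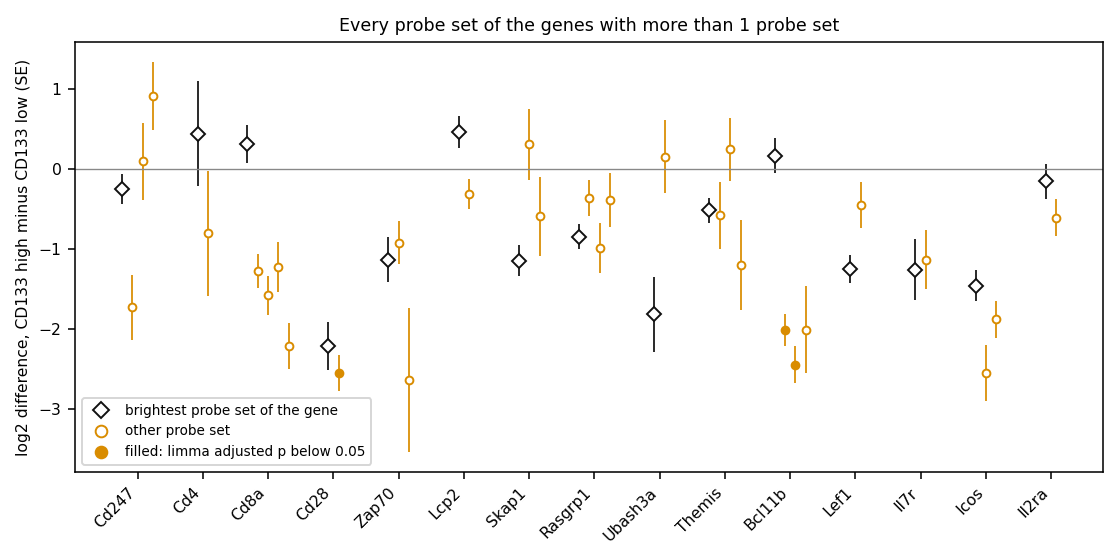
Log2 difference with its standard error (vertical axis) for every probe set of the 15 genes that have several, with a black diamond for the brightest probe set and orange circles for the others, filled where limma gave an adjusted p below 0.05. The diamonds of Cd8a and Bcl11b lie above 0 at 0.31 and 0.17 while their other probe sets lie between −2.45 and −1.22, and the filled symbols are 1 probe set of Cd28 and 2 of Bcl11b.

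None of the 7 regulatory, helper and activation genes passed in limma, with a median of −1.46 over the 7. At an unadjusted p under 0.05, 4 were lower, against 9.94% of all genes. The same 4 were lower without overlap, against 12.8% of all genes. Ctla4, an inhibitory receptor that competes with CD28, had 8.75, 7.70 and 7.71 in the CD133 high arrays and 10.32, 10.39 and 10.70 in the CD133 low arrays (−2.42, SE 0.31, adjusted p = 0.0558). Icos, a costimulatory relative of CD28, had 8.95, 8.40 and 8.47 in the CD133 high arrays and 9.99, 9.98 and 10.22 in the CD133 low arrays (−1.46, SE 0.19, adjusted p = 0.0584), and its other probe sets differed by −2.55 and −1.88 (adjusted p = 0.0664 and 0.0504). Cd28, Ctla4 and Icos are adjacent protein-coding genes in RefSeq, and each missed the threshold at its brightest probe set by a small margin.

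Pdcd1, which encodes PD-1, had 7.98, 6.35 and 5.41 in the CD133 high arrays and 9.37, 9.53 and 9.43 in the CD133 low arrays. Its difference of −2.86 was the largest in size of the 36 genes, but the CD133 high arrays spread widely (SE 0.59, adjusted p = 0.188). Tbx21, which encodes T-bet, the factor of type 1 helper and cytotoxic cells, had 6.10, 6.70 and 5.51 in the CD133 high arrays and 7.84, 8.34 and 7.86 in the CD133 low arrays (−1.91, SE 0.34, adjusted p = 0.127).

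The groups overlapped for Foxp3, Il2ra and Cd40lg at their brightest probe sets. Foxp3, the defining factor of regulatory T cells, stood at 7.29, 9.12 and 7.44 in the CD133 high arrays and 7.44, 7.44 and 7.62 in the CD133 low arrays (0.45, SE 0.48, adjusted p = 0.636). CD133 high replicate 2 was the highest array, and without it the difference was −0.13. Il2ra, the interleukin 2 receptor alpha chain carried by regulatory and activated T cells, stood at 7.02, 7.61 and 7.03 in the CD133 high arrays and 7.27, 7.43 and 7.43 in the CD133 low arrays (−0.16, adjusted p = 0.735). The other probe set of Il2ra was lower without overlap (−0.61, adjusted p = 0.304). Further genes that regulatory T cells commonly carry were lower without overlap but did not pass, Ctla4 and Icos as above and, named after their values were seen, the pathway genes Tnfrsf18, which encodes GITR (−2.09, adjusted p = 0.185), and Ikzf2, which encodes Helios (−1.11, adjusted p = 0.297). Cd40lg, the helper ligand that licenses B cells and dendritic cells, was close to the lower end of the scale on all arrays and listed at exactly 0 on CD133 high replicate 1 and CD133 low replicate 2.

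Other genes of T-cell receptor signalling and T-cell identity, from a list of 61 of which 52 were measured, included further genes that were lower in the CD133 high fraction. Of these 52 genes 2 fell and 0 rose, where 0.231% of all genes fell and 0.0220% rose, and the median difference was −0.46. The difference was negative in 38 and positive in 14. The largest positive one, named after its value was seen, was that of Nfatc2, a calcium-regulated factor of activated T cells, with 7.84, 10.58 and 11.15 in the CD133 high arrays and 8.15, 7.91 and 8.04 in the CD133 low arrays (1.82, adjusted p = 0.327). Ikzf3, the lymphoid factor Aiolos, stood at 7.30, 7.85 and 7.55 in the CD133 high arrays and 9.18, 9.33 and 9.42 in the CD133 low arrays (−1.74, SE 0.19, adjusted p = 0.0349). Trat1, an adaptor bound to the receptor complex, stood at 5.49, 5.64 and 5.31 in the CD133 high arrays and 7.40, 7.39 and 7.83 in the CD133 low arrays (−2.06, SE 0.23, adjusted p = 0.0368). The next smallest p-values were those of Slamf6, a homotypic lymphocyte receptor (−1.15, adjusted p = 0.0579), Ccr7, the receptor that guides naive T cells and mature dendritic cells to lymph nodes (−2.67, adjusted p = 0.0633), the costimulatory receptor Cd27 (−1.86, adjusted p = 0.0692) and Tnfrsf4, which encodes OX40 (−1.24, adjusted p = 0.0742). Without CD133 high replicate 1, 20 of the 52 fell and 4 rose, where 14.6% of all genes fell and 11.7% rose, and 7 of the 17 receptor locus probe sets fell, against 11.8% of all probe sets.

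The T-cell genes were lower in CD133 high replicate 1 as well, the array that otherwise correlated more closely with the CD133 low fraction. In it, 31 of the 36 genes lay below every CD133 low array, against 30.0% of all genes, and in CD133 high replicates 2 and 3 the numbers were 28 and 30, against 36.9% and 40.9% of all genes. The list median relative to the CD133 low mean was −1.25, −1.18 and −1.47 in replicates 1, 2 and 3. Of the 36 genes, 26 (72.2%) were nearer the CD133 low mean in replicate 1 than in the mean of replicates 2 and 3, a share close to the 68.8% over all genes.

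Genes differed in how far replicate 1 went. Tbx21, Gata3, Cd7, Sh2d2a and Themis were as low in replicate 1 as in the mean of replicates 2 and 3, with gaps of −0.05 to 0.02. Pdcd1, Txk, Il7r, Cd3g, Thy1 and Ctla4 lay above that mean by 1.05 to 2.10. Cd3g and Ctla4 were low in replicate 1 all the same, at −2.03 and −1.72 from the CD133 low mean, whereas Il7r and Thy1 differed by −0.33 and −0.45.

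**Figure D3:**
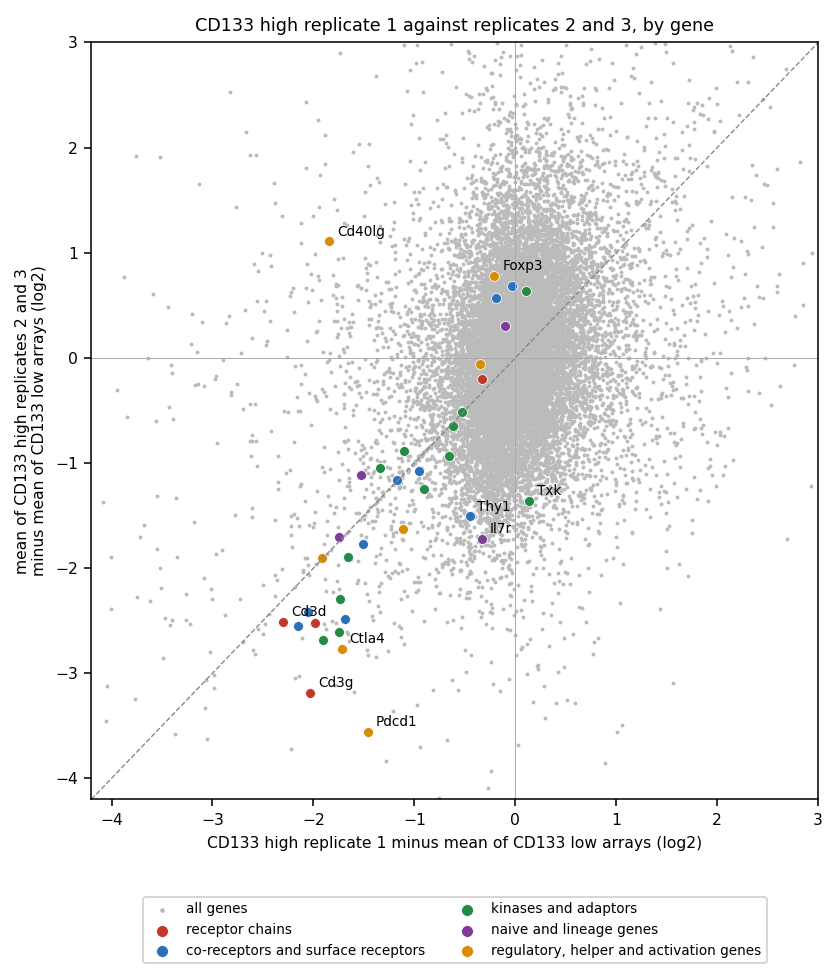
Log2 difference from the CD133 low mean in CD133 high replicate 1 (horizontal axis) against the mean of CD133 high replicates 2 and 3 (vertical axis), with all genes in grey, T-cell genes coloured by role and a dashed line of equality; 133 genes lie outside the plotted range, none of them a T-cell gene. Most coloured points lie at the lower left, while Il7r, Thy1 and Txk are low mainly in replicates 2 and 3.

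Markers of other cells that the fractions could hold moved in different ways, and their part in the T-cell results was not tested. Beside the counts for these lists, 0.231% of all genes fell and 9.94% were lower at an unadjusted p under 0.05 in limma. Natural killer cells, which share Cd247, Cd2, Cd7, Zap70, Lat, Txk, Sh2d1a and Tbx21 with T cells, had 0 of 7 measured markers past the threshold in limma and 4 lower at an unadjusted p under 0.05. The mean log2 level of these 7 was 6.57 to 7.23 in the CD133 high arrays and 7.51 to 7.96 in the CD133 low arrays, and their list medians were −0.54, −1.22 and −1.36 in CD133 high replicates 1, 2 and 3. Ncr1, which defines them, stood at 6.21, 5.46 and 5.99 in the CD133 high arrays and 6.52, 6.55 and 6.47 in the CD133 low arrays (−0.62, adjusted p = 0.321). On every array this was below the median of all probe sets, which was 6.60 to 6.77. Ncr1 therefore does not show whether RNA of natural killer cells was present in either fraction. No marker in any of the lists was at 0 on any array, which does not show presence either. The 4 lower natural killer cell markers were Klrk1, Klrd1, Gzma and Eomes. Klra8 went the other way, at 0.40, with 5 of its values below 5.

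Of 6 B-cell markers 3 fell (Cd79a, Cd79b and Ms4a1, at −3.06, −4.10 and −2.81), while Cd22, Blk and Pax5 overlapped between the fractions and differed by −0.22, 0.11 and 0.07, so the list median of −1.51 lies between these sets. The mean level of the 6 was 7.24 to 7.97 in the CD133 high arrays and 9.23 to 9.50 in the CD133 low arrays. Of 6 dendritic cell markers 1 fell, H2-Ob at −1.96 (limma, adjusted p = 0.0186). In all, 3 of them were lower at an unadjusted p under 0.05, and 5 differences were negative and 1 positive. The 3 were H2-Ob, Flt3 at −0.82 and Ccr7 at −2.67, which is also among the pathway genes above. Itgax, Xcr1 and Zbtb46 overlapped between the fractions and differed by −0.49, −0.20 and 0.36, so the dendritic cell list did not move as 1. Mast cell markers (5 genes, 0 past the threshold in limma, 4 lower at an unadjusted p under 0.05) had list medians of −0.59, −1.49 and −1.50 in CD133 high replicates 1, 2 and 3. The 6 pan-leukocyte markers had 0.14, −0.55 and −0.62, with 0 past the threshold in limma and 2 lower at an unadjusted p under 0.05. The 6 epithelial tumour cell markers had 0.16, 0.0017 and −0.20, with 0 past the threshold and 0 lower or higher at an unadjusted p under 0.05. In CD133 high replicate 1 the medians of the T-cell, B-cell, mast cell, natural killer cell and dendritic cell lists were −1.25, −2.14, −0.59, −0.54 and −0.46, and those of the macrophage, neutrophil, pan-leukocyte and epithelial lists were 0.09, 0.93, 0.14 and 0.16.

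**Figure D4:**
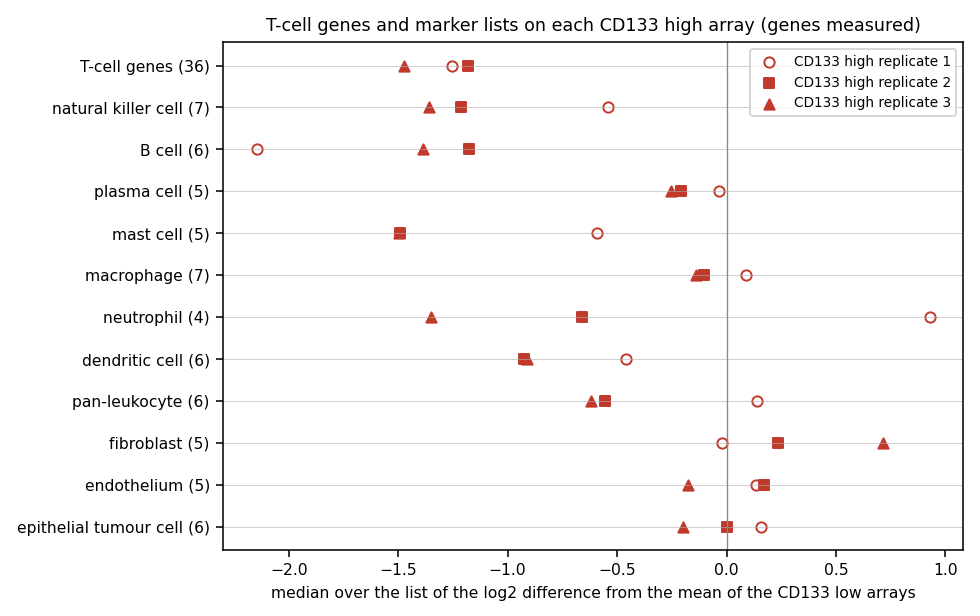
Median over each list of the log2 difference from the mean of the CD133 low arrays (horizontal axis), for the 36 T-cell genes and 11 marker lists with the number of genes measured, with an open circle for CD133 high replicate 1 and filled symbols for replicates 2 and 3. The T-cell list lies between −1.47 and −1.18 on all 3 arrays, whereas the neutrophil list lies at 0.93 in replicate 1 and at −0.66 and −1.35 in replicates 2 and 3.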

How the data were processed

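Affymetrix arrays of 3 CD133 high and 3 CD133 low samples were compared. Total RNA came from an Ambion kit and was labelled with biotin, per the labels' protocols. The deposited table is on a log2 scale, since the low values, taken as powers of 2, are multiples of 0.01. The sources used here do not say how the authors summarised or normalized the probes. The design text names a smaller array than the 45101 probe sets of that table would need. Gene names are those of the platform annotation, and promoter sequences are RefSeq's.

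After removal of 64 control probe sets, 45037 probe sets were fitted in R 4.3.3 by limma 3.58.1 (files were read by the package data.table, version 1.17.8), with a variance trend, two-sided, no covariate, and Benjamini-Hochberg adjustment over all of them (threshold 0.05). The script was checked on simulated data. The brightest of a gene's probe sets was used. No exact permutation test was run, because with 3 arrays per fraction the smallest two-sided p it allows is 0.1. Named genes were all members, their other probe sets that passed or differed in sign, and the pathway genes past the threshold or, up to 6, with the smallest p. The members and lists were chosen with earlier results of these data known. Replicates were numbered in accession order. No label says that replicates were separate animals, and the spread that p-values measure may then be technical. The number of arrays limits the precision.

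The alternatives were other scalings, a filter on dim probe sets, a floor of 5, other variance models, array weights, a threshold of 0.1, other probe set rules, a covariate and leaving out each array.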

Additional observations from a re-analysis of the deposited data

How the results depend on the processing

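No paired analysis was possible because the labels number no replicates. The count of 6 fallen T-cell genes became 11 with equal array medians, equal 75th percentiles or without the dimmest 50% of probe sets (29 genes left), 12 with a robust variance trend, 25 with array weights, 13 at a threshold of 0.1, 16 with each gene's probe sets averaged, 2 with values below 5 set to 5, and 0 without a variance trend or with the hybridisation controls as a covariate. It ranged from 0 to 25 when arrays were left out in turn, with 25 only without CD133 high replicate 1. Apart from that fit, shares of all genes under these alternatives are not given here. The other counts, and those of the pathway genes below, can therefore not be set against all genes. The median difference stayed negative under all 15 alternatives that can change it, between −1.43 and −1.15, and moved to −1.43 without CD133 high replicate 1. The 5 pathway genes and receptor locus probe sets that passed became 10 with equal medians or at a threshold of 0.1, 8 with equal 75th percentiles or without dim probe sets, 9 with a robust trend, 25 with array weights, 2 with the floor of 5 or without shared-sequence probe sets, 3 with the covariate, 0 without a trend, and 0 to 31 when arrays were left out. Over 636 gene and setting pairs, 497 kept direction and side of the threshold, 47 lost a call, 78 gained one and 14 turned in sign. The covariate turned Cd8a to −0.17, Bcl11b to −0.23, Foxp3 to −0.40 and Cd40lg to −1.20. The mean of probe sets turned Cd8a to −1.20, Bcl11b to −1.58 and Cd4 to −0.18, and dropping shared-sequence probe sets turned Cd4 to −0.81. Leaving out arrays in turn, the difference ranged from −0.077 (without CD133 low replicate 2) to 0.84 for Cd4, from −0.043 to 0.30 for Bcl11b, from −0.13 to 0.78 for Foxp3 (both lowest without CD133 high replicate 2) and from −0.80 to 1.11 for Cd40lg, which was below 0 without replicate 2 or 3 of the CD133 high arrays or replicate 2 of the CD133 low arrays. The cause of these changes was not tested, and neither was the part of the smaller number of arrays or probe sets. Values near the bottom of the scale limit Cd4 and Cd40lg throughout.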
